A study of Mus musculus with 16 samples.

Results

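The genes described here are 9 transcriptional regulators that hepatocytes are known for: Hnf4a, Foxa2, Foxa3, Cebpa, Nr1i2, Nr1i3, Nr1h4, Ppara and Nr0b2. They were taken by symbol from the 47729 genes counted in each of 16 bulk RNA-seq libraries of sorted mouse liver cells, and every member was found once. The libraries came from 4 cell types, namely hepatocytes (HEP), endothelial cells (EC), hepatic stellate cells (HSC) and Kupffer cells (KC), each with 2 libraries labelled wild type (WT) and 2 labelled knock-out (KO). The KO label stands for mice with floxed Zeb2 alleles and a tamoxifen-inducible Cre driven by the endothelial Cdh5 promoter, and the WT label for littermates without Cre. Both received tamoxifen at 2 mg per day for 5 days, so that tamoxifen exposure was shared by all 16 libraries. Per the methods of the study, mice were 8 weeks old, the livers were unchallenged, and the floxed sequence is exon 7 of Zeb2. Cre was directed to endothelium, so that a hepatocyte, stellate or Kupffer cell library with the KO label holds cells from a knock-out mouse and not cells meant to lack Zeb2. Per the methods the 4 cell types were sorted from shared liver suspensions, but the labels tie no library to a liver. Libraries of different cell types were therefore tested as independent although some may share a liver. Within a cell type, p-values rest on the spread between 2 libraries of each label, moderated across genes. Tests over all 16 libraries pool that spread over the 8 groups.

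The 9 regulators form a cross-regulating circuit that keeps the hepatocyte programme on. Hnf4a is a nuclear receptor that binds DNA as a homodimer and drives apolipoprotein, clotting factor and gluconeogenic genes. Foxa2 and Foxa3 are forkhead factors that open liver enhancers, and Cebpa is a leucine zipper factor of hepatocytes and of the myeloid lineage. Nr1i2 (the pregnane X receptor, PXR) and Nr1i3 (the constitutive androstane receptor, CAR) sense xenobiotics and switch on cytochrome P450 and transport genes. Nr1h4 (the farnesoid X receptor, FXR) senses bile acids and induces Nr0b2 (the small heterodimer partner, SHP), which lacks a DNA-binding domain and represses bile acid synthesis, while Ppara (PPARalpha) responds to fatty acids and drives their oxidation. Nr1i2, Nr1i3, Nr1h4 and Ppara bind DNA together with a retinoid X receptor.

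Windows at start sites of the 9 genes were read from the RefSeq table on build GRCm38.p6, which held 12 start sites for them. Letters of known binding sites were searched on both strands from 250 bases before to 50 bases after each start, with the share of all 32851 promoters in the table that hold them. The nuclear receptor core site AGGTCA stood in the Nr1h4 promoter alone (16.3% of all promoters). TGTTTGC, a forkhead core, stood in the Nr1i2 promoter alone (5.07%), and GTTAAT, a site of the liver factor Hnf1, in those of Hnf4a, Foxa2 and Nr1h4 (7.1%). CAAAGTCCA, an Hnf4a site, TGTTTAC, another forkhead core, and TTGCNNAA, a Cebp site, matched none of the 12 (0.475%, 3.65% and 10.8% of all promoters). No search motif overlaps another one in the matches found. The 250 bases before a start are printed for 5 of them, 5′ to 3′ on the strand of the gene, with matches in capitals: Hnf4a at its downstream start and Nr1i2 because each holds 2 matches of 1 motif, Nr1h4 and Cebpa because their levels across cell types differ from those of the other members, and Nr0b2 because it was the most abundant per length.
Hnf4a, chr2:163546905-163547154, plus strand: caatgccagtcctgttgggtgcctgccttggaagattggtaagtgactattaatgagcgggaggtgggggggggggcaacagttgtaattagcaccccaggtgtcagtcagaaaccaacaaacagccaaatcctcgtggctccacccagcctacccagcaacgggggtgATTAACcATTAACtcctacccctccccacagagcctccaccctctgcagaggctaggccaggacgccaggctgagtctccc
Nr1i2, chr16:38294825-38295074, minus strand: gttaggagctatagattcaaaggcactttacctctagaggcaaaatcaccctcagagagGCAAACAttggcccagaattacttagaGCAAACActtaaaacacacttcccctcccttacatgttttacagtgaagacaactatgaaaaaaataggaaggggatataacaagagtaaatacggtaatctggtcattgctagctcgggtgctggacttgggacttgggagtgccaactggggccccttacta
Nr1h4, chr10:89506659-89506908, minus strand: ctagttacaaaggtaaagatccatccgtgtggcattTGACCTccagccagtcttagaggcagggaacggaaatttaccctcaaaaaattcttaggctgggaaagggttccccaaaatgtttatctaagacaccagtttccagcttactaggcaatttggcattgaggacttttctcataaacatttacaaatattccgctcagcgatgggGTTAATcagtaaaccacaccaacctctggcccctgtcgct
Cebpa, chr7:35119043-35119292, plus strand: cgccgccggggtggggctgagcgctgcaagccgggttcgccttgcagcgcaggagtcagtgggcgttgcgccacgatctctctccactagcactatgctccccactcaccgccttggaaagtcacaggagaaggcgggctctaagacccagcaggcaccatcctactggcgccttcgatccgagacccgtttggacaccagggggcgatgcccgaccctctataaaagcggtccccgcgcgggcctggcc
Nr0b2, chr4:133553126-133553375, plus strand: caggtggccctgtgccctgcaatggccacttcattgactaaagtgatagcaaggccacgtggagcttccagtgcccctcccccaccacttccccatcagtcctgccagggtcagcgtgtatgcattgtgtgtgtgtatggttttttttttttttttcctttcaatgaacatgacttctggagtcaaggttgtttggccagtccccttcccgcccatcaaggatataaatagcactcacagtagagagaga
In the Hnf4a window both matches are GTTAAT read on the opposite strand, 81 and 74 bases before the start. In the Nr1i2 window both are TGTTTGC on the opposite strand, 191 and 164 bases before the start. The Nr1h4 window holds AGGTCA on the opposite strand 214 bases before the start and GTTAAT 40 bases before it. The RefSeq start of Nr1h4 lies inside the gene as GENCODE draws it, so that this window is at an internal start. Such matches describe letters only and no binding was measured.

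Libraries held 12872706 to 15690506 counts on genes, so that 3 counts corresponded to 0.191 to 0.233 CPM (a gene's count divided by the library's total over genes and brought to the usual CPM scale). The targeted gene, Zeb2 (chr2:44983632-45117395, minus strand), stood at 106 and 106 CPM in the EC libraries labelled WT and at 199 and 130 CPM in those labelled KO (log2 fold change 0.62, standard error (SE) 0.24, adjusted p = 0.303). Counts cover all exons of the gene, so that a loss of exon 7 alone could not be seen in them, and KO is used here as the name of a label. The study itself reports efficient Zeb2 deletion in endothelium, at the mRNA level and in most ECs, from other measurements. Each cell type carried its own markers: 12 hepatocyte markers summed to between 137800 and 153100 CPM in HEP, 8 endothelial markers to between 13290 and 17990 CPM in EC, 8 stellate markers to between 45990 and 53920 CPM in HSC and 7 Kupffer markers to between 32210 and 42520 CPM in KC. Hepatocyte markers were detected in every other library too, with all 12 above 0, at 2815 to 33360 CPM in EC, 765.5 to 10630 CPM in HSC and 8499 to 16090 CPM in KC. The median marker stood at 11.1% and 23.0% of its mean WT HEP level in the EC libraries labelled WT and at 2.44% and 1.97% in those labelled KO. In HSC it was 3.36% and 7.34% under the WT label and 0.502% and 1.17% under the KO label, and in KC it was 5.21% and 8.09% against 9.22% and 12.0%. These shares are given beside the members below, and their part in the members' differences was not tested.

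In hepatocytes all 9 regulators were expressed. Per kilobase of exon, which allows an approximate comparison of genes, Nr0b2 was highest at 236.7 ± 81.0 CPM per kb (mean ± SD, n = 4), followed by Nr1h4 at 54.7 ± 9.74, Ppara at 40.4 ± 10.5, Foxa3 at 33.4 ± 4.25, Nr1i2 at 28.5 ± 2.85, Hnf4a at 18.4 ± 7.68, Nr1i3 at 9.52 ± 0.851, Foxa2 at 8.09 ± 4.17 and Cebpa at 6.54 ± 1.28 CPM per kb. Exon length is that of all annotated transcripts of a gene together. For Nr1i3 it is 4414 bases, of which 3304 are shared with Tomm40l, so that its place in the order is less sure. The 4 Nr0b2 values lay above all values of Nr1h4, whereas each other pair of neighbours in this order overlapped. Nr1i3 and Nr1i2, the xenobiotic receptors, varied least among the 4 HEP libraries, with coefficients of variation of 8.94% and 10.0% in CPM. Foxa2 varied most, at 51.5%, followed by Hnf4a at 41.7%.

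**Figure D1:**
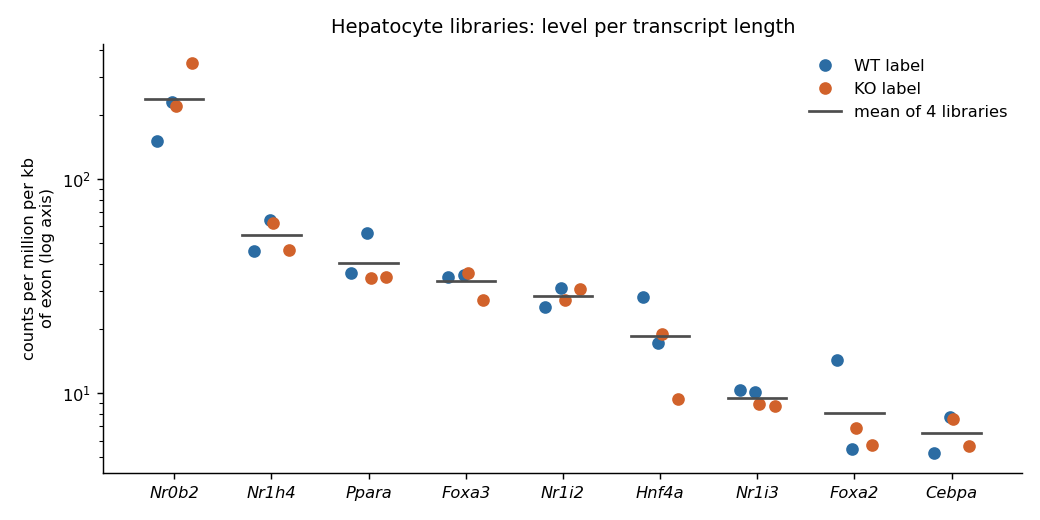
Level of each regulator in the 4 hepatocyte libraries in CPM per kb of exon (log axis), ordered by the mean (bar), with 1 point per library coloured by label. Nr0b2 stands apart at a mean of 236.7 CPM per kb, while the other 8 genes lie between means of 6.54 and 54.7 CPM per kb with overlapping neighbours.

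Of the 9 regulators, 7 were higher in HEP than in each of EC, HSC and KC, namely Hnf4a, Foxa2, Foxa3, Nr1i2, Nr1i3, Ppara and Nr0b2 (edgeR quasi-likelihood test over 16 libraries, adjusted p under 0.05 in each comparison), against 17.9% of all genes tested. Nr1h4 and Cebpa were the exceptions, since Nr1h4 counts were as high in HSC and Cebpa counts as high in KC. By comparison, 9 of 9 were higher in HEP than in EC (25.5% of all genes), 8 of 9 higher than in HSC (24.4%) and 8 of 9 higher than in KC (26.3%), with median log2 fold changes of 5.62, 6.47 and 4.77. HEP libraries put a large share of reads on few genes, so these values depend on scaling: with TMM factors the median of all genes was -0.54, -0.60 and -0.24, and with library totals alone it was -1.85, -1.67 and -1.24. In bulk libraries fewer cells of a type and less RNA of a gene per cell cannot be told apart. The 7 regulators were called under both scalings, with DESeq2, with WT libraries alone, at a minimum fold of 8, and after leaving out any 1 library.

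**Figure D2:**
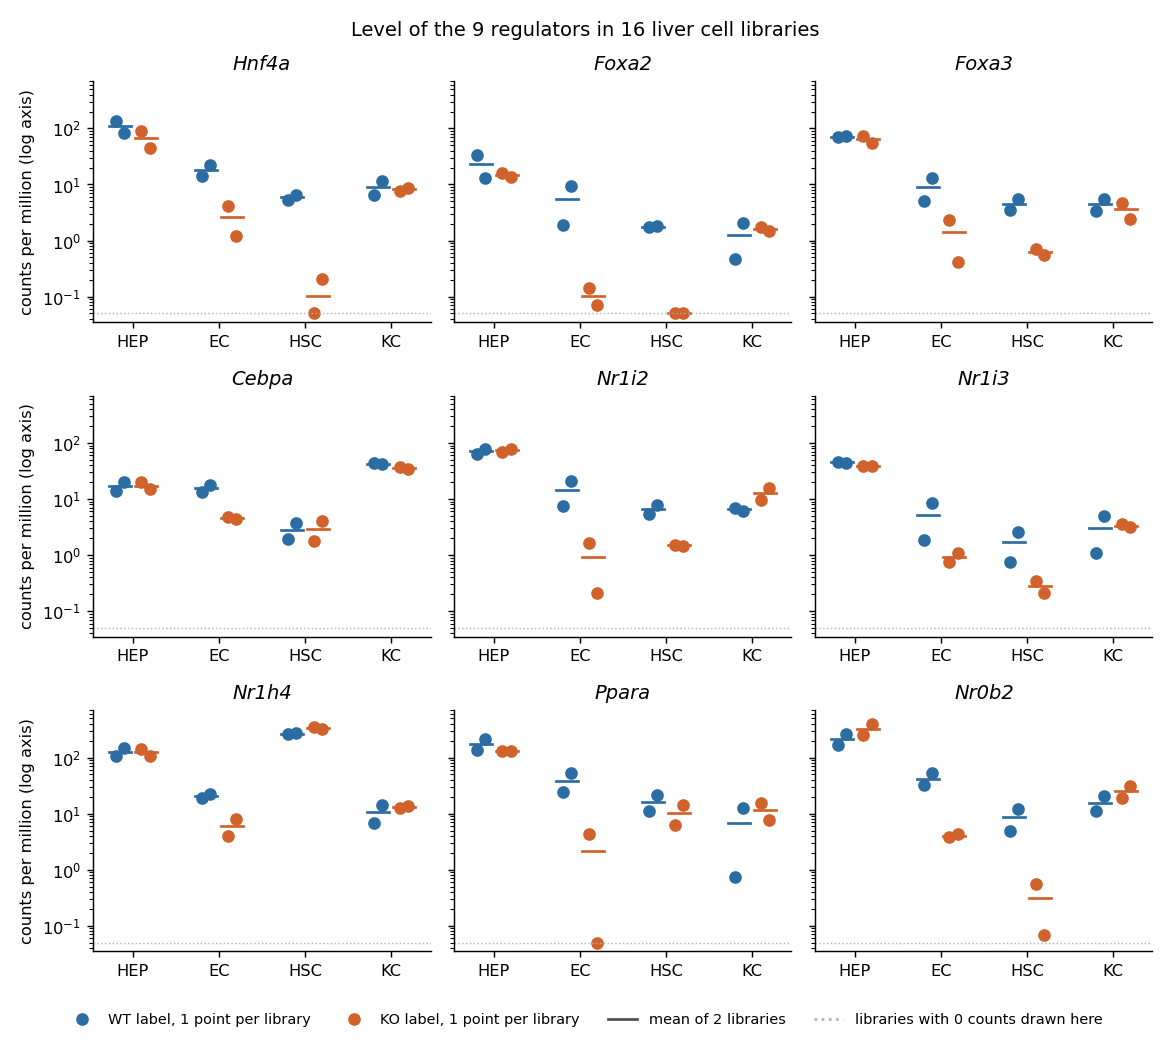
CPM of each regulator (log axis) in the 16 libraries, by cell type and label, with 1 point per library, bars at the mean of 2 libraries and libraries without counts drawn on the dotted line. Nr1h4 peaks in HSC (262 to 344.5 CPM) and Cebpa in KC (34.4 to 43.5 CPM), while the other 7 peak in HEP.

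Among the core factors, Hnf4a (chr2:163506808-163572910, plus strand) was counted at 135.7 and 83.1 CPM in the WT HEP libraries and at 91.5 and 45.4 CPM in the KO HEP libraries. In EC it stood at 13.9 and 21.98 CPM (WT) and 4.18 and 1.18 CPM (KO), in HSC at 5.38 and 6.59 CPM (WT) and 0 and 0.207 CPM (KO), and in KC at 6.51, 11.4, 7.71 and 8.80 CPM (WT, WT, KO, KO). All 4 HEP libraries lay above the other 12, with log2 fold changes of 5.01 (SE 0.43) against EC, 7.82 (SE 0.53) against HSC and 4.38 (SE 0.42) against KC. Foxa3 (chr7:19013284-19023538, minus strand) was likewise highest in HEP, at 71.0, 72.3, 73.8 and 55.2 CPM in HEP (WT, WT, KO, KO) and at 0.417 to 12.8 CPM in the other 12 libraries. Foxa2 (chr2:148042877-148046969, minus strand) was counted at 33.8, 12.96, 16.3 and 13.6 CPM in HEP, so that WT library 29 stood above the other 3, and at 0 to 9.24 CPM elsewhere. Its log2 fold change was 5.92 (SE 0.66) against EC and 4.77 (SE 0.59) against KC. Against HSC both KO libraries held 0 counts of Foxa2, for which no standard error could be had, and with WT libraries alone the log2 fold change was 4.76 (adjusted p = 0.000905).

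The xenobiotic receptors were the steadiest in HEP. Nr1i2 (chr16:38248323-38294824, minus strand) stood at 64.1, 79.4, 69.2 and 77.9 CPM in HEP (WT, WT, KO, KO) and at 0.209 to 21.4 CPM in the other 12 libraries, and Nr1i3 (chr1:171213970-171220701, plus strand) at 45.8, 44.6, 39.3 and 38.3 CPM against 0.207 to 8.54 CPM. Their log2 fold changes were 5.69 (SE 0.49) and 5.62 (SE 0.58) against EC, 5.67 (SE 0.48) and 7.04 (SE 0.64) against HSC, and 4.04 (SE 0.44) and 4.80 (SE 0.55) against KC. Exons of Nr1i3 share 3304 bases with Tomm40l on the opposite strand, which reached at most 209 counts, and the strand setting of the counting was not given in the sources used here. In both genes the highest library outside HEP was EC WT library 38, the one with the highest hepatocyte marker share.

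Ppara (chr15:85734983-85802819, plus strand) was counted at 138.9, 215.3, 132.2 and 133.5 CPM in HEP (WT, WT, KO, KO), so that WT library 33 stood above the others. Outside HEP its libraries spread widely, from 0 to 52.4 CPM in EC, 6.22 to 21.2 CPM in HSC and 0.738 to 15.7 CPM in KC, and did not overlap with HEP. Log2 fold changes were 5.50 (SE 0.94) against EC, 4.70 (SE 0.90) against HSC and 5.22 (SE 0.92) against KC, with the widest errors of the members that were called.

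Nr0b2 (chr4:133553376-133556536, plus strand), the bile acid feedback repressor, reached 170.9 and 259.5 CPM in WT HEP and 249.2 and 392 CPM in KO HEP. It stood at 32.3, 52.0, 3.76 and 4.31 CPM in EC, 5.00, 12.3, 0.553 and 0.0692 CPM in HSC, and 11.1, 20.4, 19.2 and 31.7 CPM in KC (WT, WT, KO, KO). HEP libraries lay above all others, with log2 fold changes of 5.72 (SE 0.46), 8.45 (SE 0.54) and 4.80 (SE 0.44) against EC, HSC and KC.

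Nr1h4 (chr10:89454234-89533585, minus strand), the bile acid receptor that induces Nr0b2, had another distribution. It was counted at 105.7 and 147.8 CPM in WT HEP and 142.9 and 107.6 CPM in KO HEP, but at 262 and 270.3 CPM in WT HSC and 344.5 and 330.3 CPM in KO HSC. All 4 HSC libraries were above all 4 HEP libraries in CPM, at 207% to 272% of the mean WT HEP level, where hepatocyte markers stood at 0.502% to 7.34%. With TMM factors the difference between HEP and HSC did not pass the test (log2 fold change -0.12, SE 0.25, adjusted p = 0.717), and with library totals alone Nr1h4 was lower in HEP by 1.25 on the log2 scale (adjusted p = 0.00126), as were 56.3% of all genes. Which of these holds per cell cannot be told apart from these counts. In EC and KC Nr1h4 was low, at 4.04 to 22.4 CPM and 6.84 to 14.6 CPM, with log2 fold changes of 4.86 (SE 0.30) and 4.48 (SE 0.29) in favour of HEP. Nr0b2 in the same HSC libraries stood at 0.0321% to 5.71% of its WT HEP level. Nr1h5, the paralogous receptor known as FXRbeta, was counted at 209.3 and 238.8 CPM in WT HSC and 314.8 and 185.5 CPM in KO HSC, and at 0 to 6.99 CPM in the other 12 libraries (HEP against HSC -8.36, SE 0.94, adjusted p = 1.05e-05).

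Cebpa (chr7:35119293-35121928, plus strand) was counted at 13.8 and 20.3 CPM in WT HEP and 19.9 and 15.0 CPM in KO HEP, and at 43.5, 42.2, 37.6 and 34.4 CPM in KC (WT, WT, KO, KO). All 4 KC libraries lay above all 4 HEP libraries in CPM, at 201.7% to 255% of the WT HEP level beside hepatocyte markers at 5.21% to 12.0%. The difference between HEP and KC did not pass the test with TMM factors (log2 fold change -0.13, SE 0.30, adjusted p = 0.758), and with library totals alone Cebpa was lower in HEP by 1.19 (adjusted p = 0.00422), as were 48.4% of all genes. In EC, Cebpa stood at 79.4% and 103% of the WT HEP level under the WT label and at 28.6% and 26.1% under the KO label, in all 4 libraries above the highest of the 12 hepatocyte markers. With TMM factors Cebpa was higher in HEP than in EC and HSC, by 2.40 (SE 0.31) and 3.69 (SE 0.34) on the log2 scale. In CPM, however, the WT libraries of HEP (13.8 and 20.3) and EC (13.5 and 17.5) overlapped, and the KO EC libraries were lower (4.45 and 4.875). The size of the difference from EC thus depends on scaling and label, and its value with library totals alone is not given here.

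**Figure D3:**
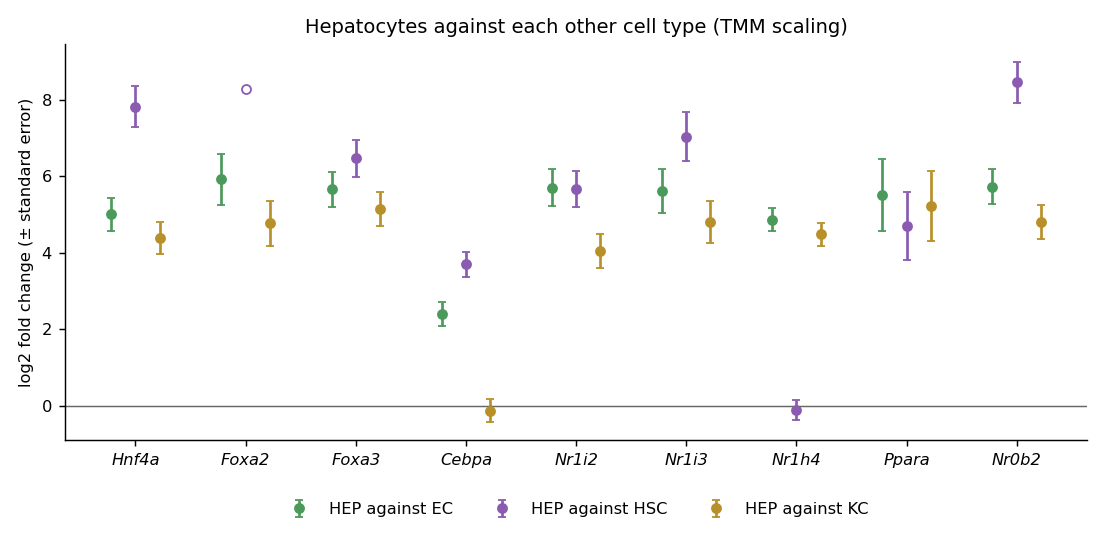
Log2 fold change of HEP against EC, HSC and KC for each regulator (points, TMM scaling, mean of both labels, n = 4 libraries per cell type) with its standard error. All points lie above 2 except Nr1h4 against HSC (-0.12) and Cebpa against KC (-0.13), and the open point marks Foxa2 against HSC, where both KO libraries held 0 counts and no standard error is given.

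Across the 16 libraries, the 7 regulators other than Nr1h4 and Cebpa moved together, with Pearson correlations of log2 CPM between 0.722 and 0.967 over 21 pairs, whereas Nr1h4 correlated with the other members at -0.153 to 0.637 and Cebpa at -0.153 to 0.744. These correlations describe 4 cell types and differing hepatocyte RNA levels and are not independent across genes. Among 10664 genes expressed in HEP, the closest to Hnf4a were Gas2 (r = 0.988) and Saa4, a constitutive serum amyloid gene (0.987), and the closest to Foxa2 were complement C3 (0.984) and Gltpd2 (0.982). Those for Foxa3 were Aldh1a7 (0.988) and Grb7 (0.986), for Nr1i2 Cyp3a13 (0.990) and Bdh2 (0.983), for Nr1i3 Akr1c6 (0.991) and Nudt7 (0.991), for Ppara the AMPK subunit gene Prkaa2 (0.969) and the pyruvate carboxylase gene Pcx (0.940), and for Nr0b2 Slc17a2 (0.994) and Aspg (0.992). The nearest genes to Nr1h4 were Rarres2, which encodes chemerin (0.986), and Serping1, which encodes the C1 inhibitor (0.983), and both were again highest in HSC, Rarres2 at 397.4 ± 55.3 CPM (SD, n = 2) in WT HSC against 189.4 ± 6.48 CPM in WT HEP. The nearest to Cebpa were Paqr9 (0.970) and Rbm47, an RNA-binding protein gene (0.958), both highest in KC, Rbm47 at 103.5 ± 5.43 CPM in WT KC against 60.5 ± 8.39 CPM in WT HEP.

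Of the retinoid X receptors, Rxra was higher in HEP than in EC (log2 fold change 1.16, SE 0.19, adjusted p = 0.000267), lower than in KC (-0.75, SE 0.19, adjusted p = 0.00537) and -0.37 (SE 0.19, adjusted p = 0.111) against HSC. Known target genes were mostly higher in HEP: of 16 Hnf4a targets 16, 16 and 16 were higher in HEP than in EC, HSC and KC, of 15 PXR and CAR targets 14, 14 and 12, of 13 tested FXR and SHP genes 13, 13 and 13, and of 21 PPARalpha targets 20, 20 and 20. Other liver transcription factors were more mixed, with 13, 13 and 14 of 17 higher in HEP and 1, 3 and 2 lower. The remaining nuclear receptors split both ways, with 8, 10 and 9 of 34 tested higher and 11, 16 and 8 lower, where 25.5%, 24.4% and 26.3% of all genes were higher and 33.2%, 34% and 29.3% lower. Of 13 coregulators 2, 4 and 3 were higher and 7, 8 and 7 lower in HEP, to be read against the same shares.

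Within hepatocytes, no regulator passed the test between the KO and WT labels (0 of 9 called by edgeR, with 0% of all genes called; 0 of 9 by DESeq2, with 0.277%). None reached an unadjusted p under 0.05, against 7.11% of all genes. Log2 fold changes ran from -0.62 for Hnf4a (SE 0.36, adjusted p = 0.735) to 0.64 for Nr0b2 (SE 0.36, adjusted p = 0.729), with a median of -0.10 beside -0.02 over all genes. Between these lay Foxa2 at -0.57 (SE 0.43), Ppara at -0.36 (SE 0.29), Nr1i3 at -0.16 (SE 0.18), Foxa3 at -0.10 (SE 0.20), Nr1h4 at 0.03 (SE 0.27), Cebpa at 0.08 (SE 0.30) and Nr1i2 at 0.10 (SE 0.23). The values for Foxa2, Foxa3, Cebpa, Nr1i2, Nr1h4 and Ppara changed sign when 1 library was left out, and standard errors of 0.18 to 0.43 leave room for differences that 2 libraries a label could not show. With TMM factors Nr1i3 alone had both KO libraries below both WT libraries, in CPM Ppara did so too, and with TMM factors 40.8% of all genes had labels that did not overlap in either direction.

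Hnf4a and Nr0b2, the members with the lowest and highest label estimates in HEP, ordered the 4 HEP libraries in opposite ways. They were singled out after their values were seen, neither passed the test, and the order of libraries was not tested. Hnf4a was highest in WT 29 (135.7 CPM) and lowest in KO 41 (45.4 CPM), and Nr0b2 lowest in WT 29 (170.9 CPM) and highest in KO 41 (392 CPM). Exons of Hnf4a span 4828 bases and those of Nr0b2 1132 bases. Over 1998 genes of more than 5000 exonic bases, the median log2 deviation from the mean of the 4 libraries was 0.14 in WT 29 and -0.15 in KO 41, over 484 genes under 1500 bases it was -0.07 and 0.06, and over the 3259 genes of 1500 to 5000 bases, among which Hnf4a falls, it was -0.006 and 0.007. Once the trend with exon length was taken out of each library, an alternative chosen after seeing the data, Hnf4a stood at -0.50 (adjusted p = 0.774) and Nr0b2 at 0.50 (adjusted p = 0.773).

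Target genes of the receptors did not pass the test in HEP either. None of 16 Hnf4a targets was called (median log2 fold change 0.05, from -0.89 for Mttp to 0.36 for Apoh), nor of 15 PXR and CAR targets (0.23, from -0.96 for Abcc3 to 1.66 for Cyp2b9), nor of 13 FXR and SHP genes (0.14, from -0.88 for Abcb4 to 1.58 for Slc51b), nor of 21 PPARalpha targets (-0.25, from -2.01 for Fgf21 to 0.93 for Cyp4a10). Unadjusted p under 0.05 was reached by 1, 2, 2 and 4 of them, against 7.11% of all genes. DESeq2 called 0.277% of all genes in this comparison. With DESeq2 the only calls among these lists were 2 PPARalpha targets, named after their values were seen: Ehhadh, a peroxisomal oxidation enzyme, at -1.50 (SE 0.28, adjusted p = 0.000225) and Cpt1a, which admits fatty acids to mitochondria, at -1.06 (SE 0.25, adjusted p = 0.0169). Ehhadh stood at 218.9 and 253.8 CPM under the WT label and 99.2 and 61.9 CPM under the KO label, and edgeR gave it a log2 fold change of -1.51 (SE 0.27, adjusted p = 0.7). Markers of other cell types also separated these libraries by label, with Kupffer markers at 169.0 and 350.3 CPM in WT against 105.5 and 141.6 CPM in KO, endothelial markers at 99.4 to 106 CPM against 70.6 to 79.9 CPM and erythroid markers at 161 to 265.9 CPM against 22.4 to 28.2 CPM. Stellate markers stood at 116.9 to 129.4 CPM against 74.1 to 114.3 CPM, while cholangiocyte markers at 61.8 to 65.7 CPM against 81.8 to 88.2 CPM and neutrophil markers at 1.43 to 1.91 CPM against 2.63 to 7.09 CPM were higher under the KO label.

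In endothelial cells, all 9 regulators were lower under the KO label in both libraries than in either WT library, as were 24.5% of all genes. Nr0b2 passed the test, at 32.3 and 52.0 CPM (WT) against 3.76 and 4.31 CPM (KO), with a log2 fold change of -3.37 (SE 0.37, adjusted p = 0.0245), and 1.97% of all genes were called lower. The other 8 did not pass (adjusted p = 0.0837 to 0.302), although all 9 had an unadjusted p under 0.05, against 10.1% of all genes in that direction, and DESeq2 called 7, against 5.74%. The median over the 9 was -2.76, beside -0.01 over all genes. Values of the core factors were -2.76 for Hnf4a (SE 0.64), -2.70 for Foxa3 (SE 0.91), -1.73 for Cebpa (SE 0.39) and -5.61 for Foxa2 (SE 1.22). Foxa2 had 3 counts over both KO libraries and 146 over both WT libraries, which is 51.4-fold lower (95% exact counting interval 17.2 to 252). That interval covers counting error only and not the spread between libraries, with Foxa2 at 1.88 and 9.24 CPM under the WT label. Values of the receptors were -3.96 for Nr1i2 (SE 0.96), -2.44 for Nr1i3 (SE 0.94), -1.75 for Nr1h4 (SE 0.46) and -4.20 for Ppara (SE 1.27), with Ppara at 24.1 and 52.4 CPM (WT) against 4.25 and 0 CPM (KO).

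Hepatocyte markers moved with them in these libraries. All 12 were called lower under the KO label, with a median of -2.93, while the sum of endothelial markers was 13290 and 16040 CPM (WT) against 17420 and 17990 CPM (KO). Of 16 Hnf4a targets 14 fell (median -2.92), for example G6pc at -4.15 (SE 0.51), Pck1 at -3.98 (SE 0.27) and Tfr2 at -3.50 (SE 0.42). Fewer passed among PXR and CAR targets (1 of 13, Ces2a at -2.59, SE 0.41), FXR and SHP genes (3 of 12, Slc27a5 at -2.82, Slc10a1 at -2.76 and Cyp8b1 at -2.23) and PPARalpha targets (7 of 20, median -1.16). Of the last, Cyp4a14 had 210 counts over both WT libraries and 0 over both KO libraries, which is at least 74.0-fold lower against a floor of 3 counts over the group, and Angptl4 stood at -3.95 (SE 0.55) and Acaa1b at -3.32 (SE 0.33). Among other liver transcription factors 2 of 16 fell, Mlxipl at -3.30 (SE 0.55) and Creb3l3 at -3.08 (SE 0.28), and 0 of 30 other nuclear receptors, 0 of 13 coregulators and 0 of 3 retinoid X receptors were called. Other markers gave stellate sums of 604 to 820.7 CPM (WT) against 249.9 to 418 CPM (KO), Kupffer sums of 343 to 595.7 CPM against 785.6 to 792 CPM, lymphocyte sums of 85.0 to 181.9 CPM against 42.8 to 44.5 CPM, cholangiocyte sums of 32.3 to 39.6 CPM against 17.7 to 29.0 CPM and neutrophil sums of 9.35 to 70.4 CPM against 6.53 to 15.9 CPM. Among cholangiocyte markers Sox9 was at -2.34 (SE 0.42), while Krt19, Krt7 and Epcam were at 0.36, 0.12 and -0.19. Sox9 was also higher in HEP than in EC (4.41, SE 0.24). The call of Nr0b2 was lost without EC KO library 6 (adjusted p = 0.0517) or 46 (adjusted p = 0.0608), and 3 members were called without EC WT library 34.

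**Figure D4:**
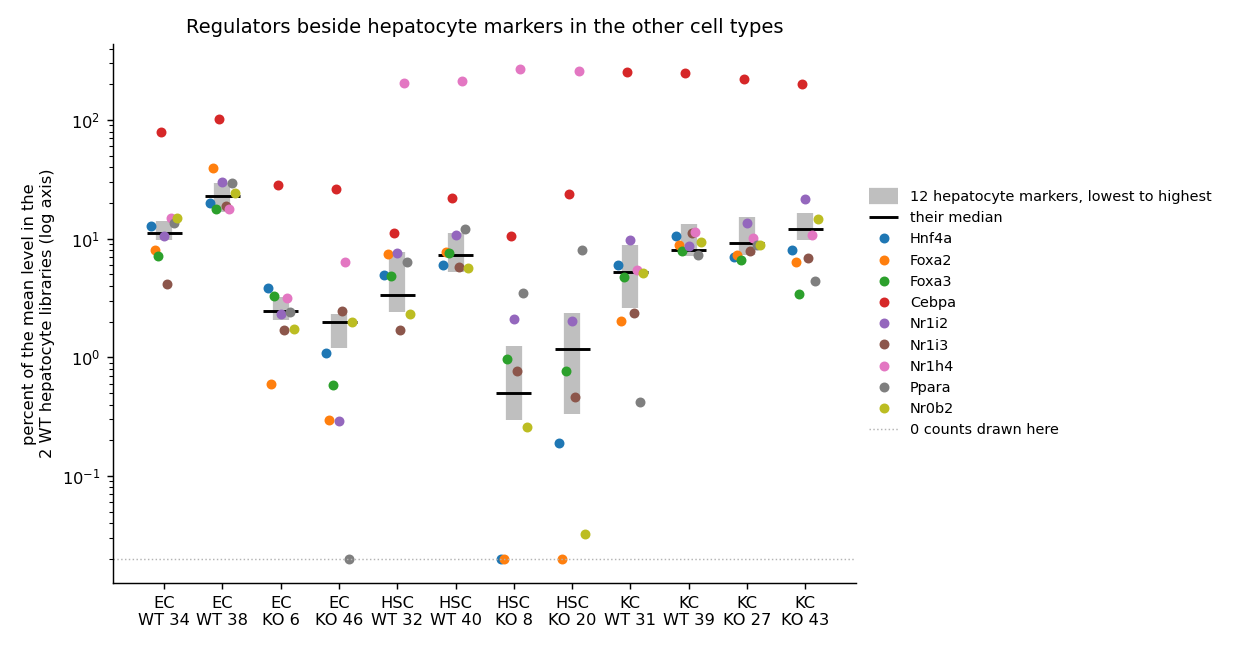
Level of each regulator (coloured points) in the 12 EC, HSC and KC libraries as a percent of its mean in WT HEP (log axis), beside the range (grey) and median (black) of 12 hepatocyte markers. Nr1h4 in HSC (207% to 272%) and Cebpa in KC (201.7% to 255%) lie above all 12 markers, and the EC and HSC libraries labelled KO hold the lowest marker medians (0.502% to 2.44%).

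In stellate cells 6 of the 9 regulators had lower counts in both KO libraries, although none passed the edgeR test, and Nr1h4 did not share that direction. Hnf4a had 84 and 103 counts in the WT libraries and 0 and 3 in the KO libraries, which is 57.7-fold lower (95% exact counting interval 19.4 to 282). The interval covers counting error only, and edgeR gave Hnf4a a log2 fold change of -5.74 (SE 1.25, adjusted p = 0.343). Foxa2 had 55 counts over the WT libraries and none over the KO libraries, at least 17.0-fold lower against 3 counts over the group. Nr0b2 stood at 5.00 and 12.3 CPM against 0.553 and 0.0692 CPM (log2 fold change -4.80, SE 1.04). Further values were -2.84 for Foxa3 (SE 0.76), -2.60 for Nr1i3 (SE 1.16), -2.16 for Nr1i2 (SE 0.58), -0.67 for Ppara (SE 0.56), 0.06 for Cebpa (SE 0.79) and 0.32 for Nr1h4 (SE 0.19, adjusted p = 0.733). None of the 9 was called by edgeR (0% of all genes called lower; smallest adjusted p = 0.343), 5 had an unadjusted p under 0.05 (7% of all genes in that direction), and DESeq2 called Hnf4a, Foxa2 and Nr0b2 (2.72%). Both KO libraries lay below both WT libraries for 6 members, against 20.6% of all genes, and Nr1h4 had both KO libraries above both WT libraries. The median over the members was -2.60, also with Foxa2 placed at its bound, and that of the 12 hepatocyte markers was -2.58 with 0 called by edgeR and 12 by DESeq2. No target list had an edgeR call, and DESeq2 called 14 of 16 Hnf4a targets, 4 of 12 PXR and CAR targets, 5 of 10 FXR and SHP genes and 5 of 20 PPARalpha targets. Erythroid markers summed to 55.6 to 158.7 CPM (WT) against 6.29 to 15.8 CPM (KO) and cholangiocyte markers to 12.9 to 13.2 CPM against 7.54 to 9.68 CPM. The cholangiocyte markers were split, with Sox9 and Epcam at -1.02 and -1.19 and Krt19 and Krt7 at 0.22 and 0.75. Endothelial markers summed to 306.7 to 562.7 CPM (WT) against 208.1 to 238.0 CPM (KO) and lymphocyte markers to 17.2 to 18.5 CPM against 6.64 to 7.33 CPM. Cebpa stood above the highest of the 12 hepatocyte markers in all 4 HSC libraries, and Ppara in 3 of them, the exception being WT library 32 (6.40% of the WT HEP level beside 7.78%). In KO library 20, Ppara was at 7.97% and Cebpa at 23.9% beside a highest marker of 2.36%, and in KO library 8 Ppara was at 3.51%, Cebpa at 10.6% and Nr1i2 at 2.12% beside 1.25%.

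In Kupffer cells no regulator passed either (0 of 9 by edgeR, with 0% of all genes called; 0 of 9 by DESeq2, with 0.519%; none with an unadjusted p under 0.05, against 5.09%). Values ran from -0.38 for Foxa3 (SE 0.73) to 0.88 for Nr1i2 (SE 0.50), with a median of 0.29, beside 0.56 for the hepatocyte markers. Cebpa, the member with the highest CPM in these cells though not the highest mean per kb of exon, was at 43.5 and 42.2 CPM (WT) and 37.6 and 34.4 CPM (KO). Its log2 fold change was -0.31 (SE 0.30, adjusted p = 0.946). Nr1i2 was at 7.04 and 6.20 CPM against 9.76 and 15.5 CPM. These 2 were the only members without overlap between labels, as were 37.3% of all genes in either direction. Median log2 fold changes of the target lists, with no call, were 0.50 for Hnf4a, 0.84 for PXR and CAR, 0.50 for FXR and SHP and 0.04 for PPARalpha. KC WT library 31 held the lowest Ppara, at 0.738 CPM against 7.71 to 15.7 CPM in the other 3, and the lowest hepatocyte marker share.

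**Figure D5:**
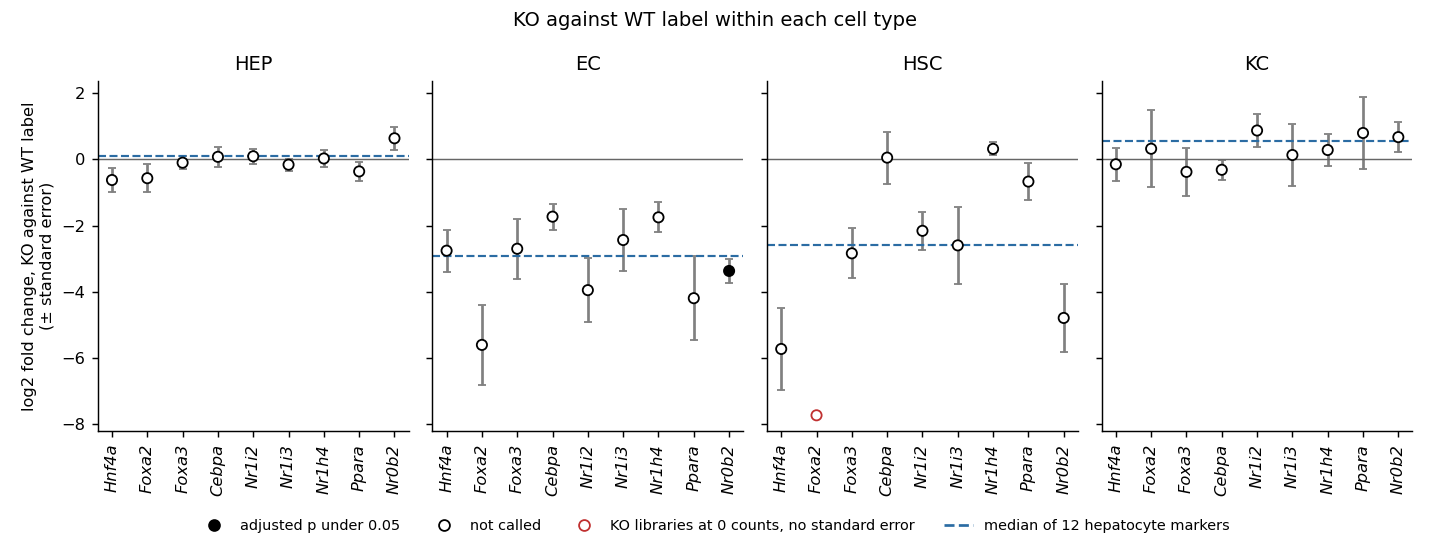
Log2 fold change of KO against WT label in each cell type (2 libraries a label) with its standard error, for the 9 regulators, with the median of 12 hepatocyte markers as a dashed line. In HEP and KC the points lie between -0.62 and 0.88, in EC all lie below -1.7 with Nr0b2 called (filled), and in HSC Nr1h4 (0.32) and Cebpa (0.06) lie above 0 while Foxa2 (red outline, 0 counts under the KO label) has no standard error.

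Differences between cell types in the label effect were tested as an interaction over all 16 libraries. Against KC, the label effect in EC was lower for Foxa2 by 5.92 (SE 1.29, adjusted p = 0.0391), for Nr1i2 by 4.82 (SE 0.88, adjusted p = 0.0214) and for Nr0b2 by 4.06 (SE 0.79, adjusted p = 0.0278), where 2.07% of all genes were called. The label effect in HSC was lower than in KC for Hnf4a by 5.62 (SE 1.03, adjusted p = 0.0367) and for Nr0b2 by 5.49 (SE 0.91, adjusted p = 0.0261), where 0.593% were called. In the same libraries the median hepatocyte marker had a label effect of -2.93 in EC, -2.58 in HSC and 0.56 in KC, and its part in these calls was not tested. No member was called by edgeR between HEP and EC (smallest adjusted p = 0.0681, with 0.0697% of all genes called), between HEP and HSC (0.0629, with 0.0755%), between HEP and KC (0.856, with 0.0116%) or between EC and HSC (0.452, with 0.0349%). An unadjusted p under 0.05 was reached by 9, 6, 0 and 3 members in these pairs, against 1570, 1232, 1408 and 835 of 17214 genes. DESeq2 called 5, 3, 0 and 1 members, and its shares over all genes are not given here.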

How the data were processed

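RNA of sorted cells was sequenced and counted by the authors. Per the labels and the submitters' processing notes, reads were trimmed with Trimmomatic 0.32, aligned to GRCm38 with HISAT2 2.1.0 and counted per gene with HTSeq 0.9.1, and raw counts were deposited, without normalization. The annotation release and strand setting are not given in the sources used here, and the sources differ on the library kit (TruSeq stranded mRNA or Smart-seq2). The 5 HTSeq summary lines were left out of library totals: reads without a feature were 1.31% to 1.55% in HEP and 7.0% to 14.0% elsewhere, and reads aligned to more than 1 place 38.2% to 47.9% and 24.8% to 30.1%. Replicate pairs differed by far more than sampling noise (chi-square per degree of freedom 29.6 to 108.9).

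Genes passing filterByExpr were tested with edgeR 4.0.16 (R 4.3.3; TMM factors, quasi-likelihood), KO against WT label within each cell type (4 libraries) and cell types and interactions over 16 libraries, with Benjamini-Hochberg adjustment over all genes at 0.05. DESeq2 1.42.0 was an alternative. Scripts were tested on simulated data. A floor was 3 counts, and intervals cover counting error only. Gene positions and exon lengths came from GENCODE M21 (99.1% of identifiers matched), promoters from RefSeq. Genes named were the 9 members, Zeb2, per member the 2 most correlated of the genes with at least 1 CPM in HEP, and of each list at most the 3 largest changes called or, where none was called, the extremes. Ehhadh and Cpt1a, outside that rule, were picked after seeing values. The cholangiocyte markers Sox9, Krt19, Krt7 and Epcam were also named beyond that rule in EC and HSC. The members and lists were chosen with earlier results of these data known. Library totals ran from 12872706 to 15690506 counts, and 2 libraries a group limit the precision. Other settings were another scaling, no filter or a stricter one, 1 joint fit and leaving out each library.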

Additional observations from a re-analysis of the deposited data

Results flagged for a closer look

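The label effect differed between cell types, by a test of the difference itself, in 5 cases. Between EC and KC the log2 difference was -5.92 for Foxa2, -4.82 for Nr1i2 and -4.06 for Nr0b2, and between HSC and KC it was -5.62 for Hnf4a and -5.49 for Nr0b2 (edgeR, adjusted p = 0.0214 to 0.0391). Hepatocyte markers moved the same way in these libraries, with median log2 fold changes of -2.93 in EC, -2.58 in HSC and 0.56 in KC, and their part in the differences was not tested.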

How the results depend on the processing

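The 7 regulators higher in HEP than in each other cell type numbered 7 under every alternative run. Counts of members called for the label were less stable. In EC, where 1 was called, DESeq2 called 7, no filter 8, the joint fit of 16 libraries 6 and an adjusted p threshold of 0.1 gave 2, with 0 to 3 when 1 library was left out (0 without EC KO 46, 3 without EC WT 34). In HSC, where 0 were called, DESeq2, no filter and the joint fit each gave 3. The share of all genes called lower was also larger with DESeq2, at 5.74% against 1.97% in EC and 2.72% against 0% in HSC. Shares under the other settings, and DESeq2 shares for differences of label effects, are not given here. For the difference of label effects, DESeq2 and no filter gave 5 and 7 between HEP and EC (0 in the main analysis), 3 and 5 between HEP and HSC (0), 1 and 3 between EC and HSC (0), 6 and 8 between EC and KC (3) and 4 and 6 between HSC and KC (2). Leaving out 1 library gave 0 to 1 (HEP and EC), 0 to 2 (HEP and HSC), 0 to 3 (EC and KC; 0 without EC WT 38, EC KO 46, KC WT 31 or KC KO 43, and 1 without EC KO 6 or KC WT 39) and 0 to 2 (HSC and KC; 0 without HSC WT 40, KC WT 31 or KC KO 43, and 1 without HSC KO 8). The cause was not tested.

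Signs changed for some members that were not called. Nr1h4 in HEP was -0.017 with library totals, and against HSC with WT libraries alone 0.0025. With the exon length trend taken out, an alternative chosen after seeing the data, Cebpa in HEP was -0.0057, Nr1i2 in HEP -0.0037, Nr1h4 in HEP -0.075 and Cebpa in HSC -0.032. Leaving out 1 library gave ranges across 0 in HEP for Foxa2 (-1.06 to 0.22), Foxa3 (-0.25 to 0.047), Cebpa (-0.22 to 0.45), Nr1i2 (-0.095 to 0.32), Nr1h4 (-0.23 to 0.36) and Ppara (-0.68 to 0.056), in HSC for Cebpa (-0.75 to 0.59), and in KC for Hnf4a (-0.41 to 0.18), Foxa2 (-0.33 to 1.59), Nr1i3 (-0.54 to 1.47), Nr1h4 (-0.079 to 0.79) and Ppara (-0.091 to 3.80). No paired analysis was possible because no replicate number is shared between groups and the labels tie no library to a liver, and tests between cell types take libraries as independent.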
